A study of Mus musculus with 4 samples.

Results

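Areg, Hbegf and Ereg (ligands of the epidermal growth factor family), Egfr (the receptor they bind) and Furin and Adam17 (proteases that process proteins of this kind) are 6 of the 21027 genes measured in both replicates. They were chosen by name and followed across the classes of cells in a sort of small-intestinal group 3 innate lymphoid cells (ILC3s), to see which class carries which ligand and which carries the receptor. All 6 were detected. Messenger RNA was counted in single cells on the BD Rhapsody system as unique molecular identifiers (UMIs, each standing for 1 captured molecule). There was 1 group, the cells sorted from the lamina propria of mice with Cxxc1flox/flox and a cre transgene, aged 6 to 8 weeks, so every cell here comes from mice that carry both, and nothing below compares Cxxc1-deficient with Cxxc1-sufficient cells. Cxxc1 encodes a DNA-binding protein of a histone methyltransferase complex. Each of the 2 replicates was 1 sample tag of its own capture, sequenced as 2 libraries. The labels do not say whether replicates came from separate or pooled animals, so p-values measure only the spread between these replicates, which may be technical.

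Amphiregulin (Areg), heparin-binding EGF-like growth factor (Hbegf) and epiregulin (Ereg) are made as membrane-anchored precursors. The metalloprotease ADAM17 cuts all 3 from the cell surface, and the soluble ligands then bind EGFR, a receptor tyrosine kinase that signals through RAS and ERK. FURIN is a Golgi proprotein convertase that removes inhibitory propeptides, including that of ADAM17. In the gut, amphiregulin from type 2 lymphocytes and regulatory T cells is known for its part in tissue repair, and fibroblasts below the epithelium are known sources of epiregulin.

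After filters, 1897 cells of replicate 1 (11205141 UMIs, median 4192 per cell) and 4180 cells of replicate 2 (11901620 UMIs, median 2364 per cell) were used. The sort held more than its label says: ILC3-like clusters made up 28.4% of the cells of replicate 1 and 24.7% of those of replicate 2. The replicates differed in make-up, with 542 and 75 plasma-like cells, 325 and 257 stromal-like cells, 237 and 1307 T-like cells, 36 and 191 type 2-like cells, and 82 and 66 macrophage- or monocyte-like cells in replicates 1 and 2. Some classes were made up differently in the replicates. Stromal-like cells were in cluster 6 (325 and 39 cells) and cluster 10 (0 and 218 cells), and the macrophage- or monocyte-like cluster 13 was not the same mixture in both. Its summed dendritic cell markers were 3767 and 1269 CPM, its summed macrophage and monocyte markers 3378 and 11922 CPM, and Csf1r, the macrophage growth factor receptor, 150 and 660 CPM, with 9 of 10 dendritic cell markers raised in the cluster. The ILC3-like cells were almost all in 1 cluster in replicate 1 (529 of 539 cells) and in another in replicate 2 (1034 of 1034). Clusters were named from marker lists without using the 6 genes or their pathway, and the names are rebuilt here, not the authors'. Cluster 1 (31 and 612 cells; Gzmc, Xcl1, Gzma, Ncr1), which carries markers of both ILC3s and type 1 cells, and cluster 4 (29 and 494 cells; Gzma, Ifng, Cd3e) stay unnamed. So does cluster 15, with 12 and 120 cells and a median of 614 UMIs per cell, led by Retnlg, Il1rn and Pla2g7. Between the captures 7 cell indices were shared, which is 0.337% and 0.154% of the tagged cells.

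Below, a level is in CPM: a gene's UMIs summed over a class, scaled to 1000000 UMIs of that class, given for replicate 1 and then replicate 2, with an exact 95% Poisson interval that covers counting error only. These levels by cluster carry no test. Tests were made on classes set apart by marker genes ("gated"), with edgeR's quasi-likelihood test on UMI sums per replicate, replicate as a block, n = 2 replicates, and p-values adjusted over all genes by the Benjamini-Hochberg method ("edgeR adjusted p"). Log2 differences come from that fit, with their standard errors (SE). Because UMI counts depend on each transcript's 3' end, levels are compared between classes and not between genes.

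Where the genes lie sets 2 of the ligands beside each other. In GRCm38, Ereg (ENSMUSG00000029377.5) spans chr5:91074622-91093646 and Areg (ENSMUSG00000029378.5) spans chr5:91139599-91148432, both on the plus strand with 45.952 kb between them, and with Epgn and Btc, other ligands of the family, on either side. Egfr (ENSMUSG00000020122.16) is at chr11:16752203-16918158, Furin (ENSMUSG00000030530.15) at chr7:80388585-80405436 and Adam17 (ENSMUSG00000052593.16) at chr12:21323509-21373632. Ereg and Areg are neighbours, yet their highest levels were in different classes. The 250 bases before the annotated start are shown for Areg, highest in the type 2-like cells, and for Egfr, which had 0 UMIs in them (RefSeq, GRCm38.p6, plus strand, 5′ to 3′). Capitals mark a cAMP response element (TGACGTCA), a GC box (GGGCGG, or CCGCCC where it lies on the other strand) and a TATA box (TATAAA).
Areg, chr5:91139349-91139598: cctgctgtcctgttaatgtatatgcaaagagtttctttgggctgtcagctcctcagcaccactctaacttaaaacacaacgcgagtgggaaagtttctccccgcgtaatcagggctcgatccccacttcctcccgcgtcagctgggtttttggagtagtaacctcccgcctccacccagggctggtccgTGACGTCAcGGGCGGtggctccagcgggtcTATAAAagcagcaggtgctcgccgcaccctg
Egfr, chr11:16751953-16752202: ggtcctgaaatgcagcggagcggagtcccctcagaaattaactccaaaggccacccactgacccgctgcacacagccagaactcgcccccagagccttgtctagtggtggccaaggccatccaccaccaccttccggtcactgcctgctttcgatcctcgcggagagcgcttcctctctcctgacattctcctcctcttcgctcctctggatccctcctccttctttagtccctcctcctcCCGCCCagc
In the Areg window the first base of TGACGTCA is 61 bases, of GGGCGG 52 bases and of TATAAA 31 bases before the start, and the 3 motifs do not overlap. The Egfr window holds 1 GC box, 9 bases before the start, and neither of the other motifs. Searched on both strands, TGACGTCA was in 508 of 32851 RefSeq windows of this length (1.55%), TATAAA in 4063 (12.4%) and GGGCGG in 10756 (32.7%). These matches describe letters in the windows, and the present data hold no measurement of binding there.

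Areg was highest in the type 2-like cells in both replicates. Its level there was 288 CPM (95% interval 199–403, 34 UMIs) in replicate 1 and 784 CPM (709–865, 397 UMIs) in replicate 2. In ILC3-like cells it was 35.3 (27.4–44.7) and 64.8 CPM (56.0–74.5). Type 2-like cells were therefore 8.16-fold (5.24–12.5) and 12.1-fold (10.2–14.4) above ILC3-like cells, and the intervals of these classes did not overlap in either replicate. A single type 2-like cell held 13 of the 34 Areg UMIs in replicate 1, and at most 31 of the 397 in replicate 2. The intervals leave out this spread between cells. T-like cells had 15.4 and 45.2 CPM, stromal-like cells 28.3 and 28.1 CPM, and plasma-like cells 4.07 and 7.28 CPM. Macrophage- or monocyte-like cells had 1 UMI in replicate 1 (1.28 CPM) and 47.3 CPM in replicate 2, so the replicates did not give that class one place in the order. Among dendritic-like cells of replicate 2, 10 of the 13 Areg UMIs came from 1 cell. The 8 and 4 epithelial-like cells carried 141 and 80.9 CPM, too few cells to place.

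**Figure D1:**
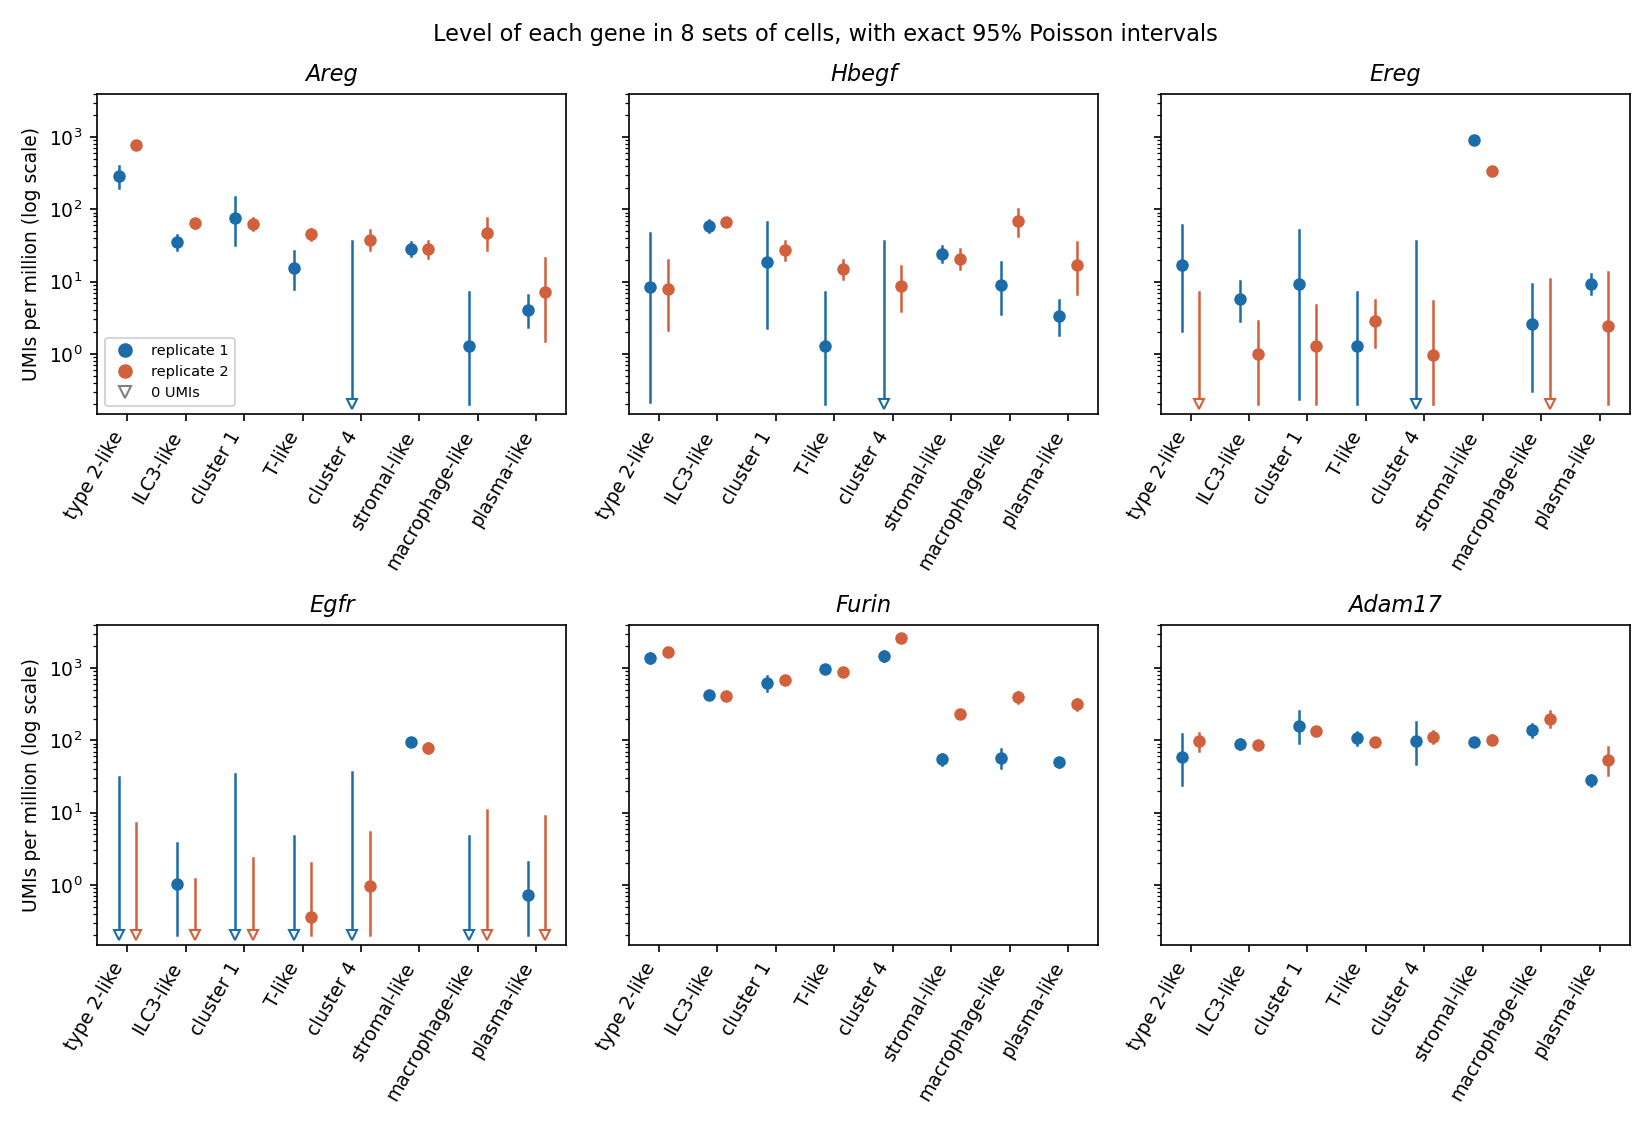
Levels of the 6 genes (CPM, log axis) in 8 sets of cells, 1 point per replicate, with exact 95% Poisson intervals and open triangles at 0 UMIs. Areg peaks in type 2-like cells (288 and 784 CPM), while Ereg (913 and 335 CPM) and Egfr (95.2 and 78.2 CPM) peak in stromal-like cells.

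Being few, the type 2-like cells did not hold most Areg molecules everywhere. In replicate 2 they were 4.57% of the cells and held 41.8% of the Areg UMIs. In replicate 1 they were 1.90% of the cells and held 14.6%, behind the stromal-like (33.9%) and ILC3-like cells (29.2%). An Areg UMI was seen in 30.6% and 47.6% of type 2-like cells and in 6.49% and 6.77% of ILC3-like cells, at median depths of 2940 and 2481 against 3464 and 2862.5 UMIs per cell. With each cell thinned to 1000 UMIs, the shares were 22.2% (10.1–39.2) and 31.4% (24.7–38.6) of type 2-like cells, 2.97% and 2.82% of ILC3-like cells, 1.27% and 2.33% of T-like cells and 1.54% and 2.37% of stromal-like cells. Type 2-like cells thus stayed above ILC3-like, T-like and stromal-like cells at matched depth.

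**Figure D2:**
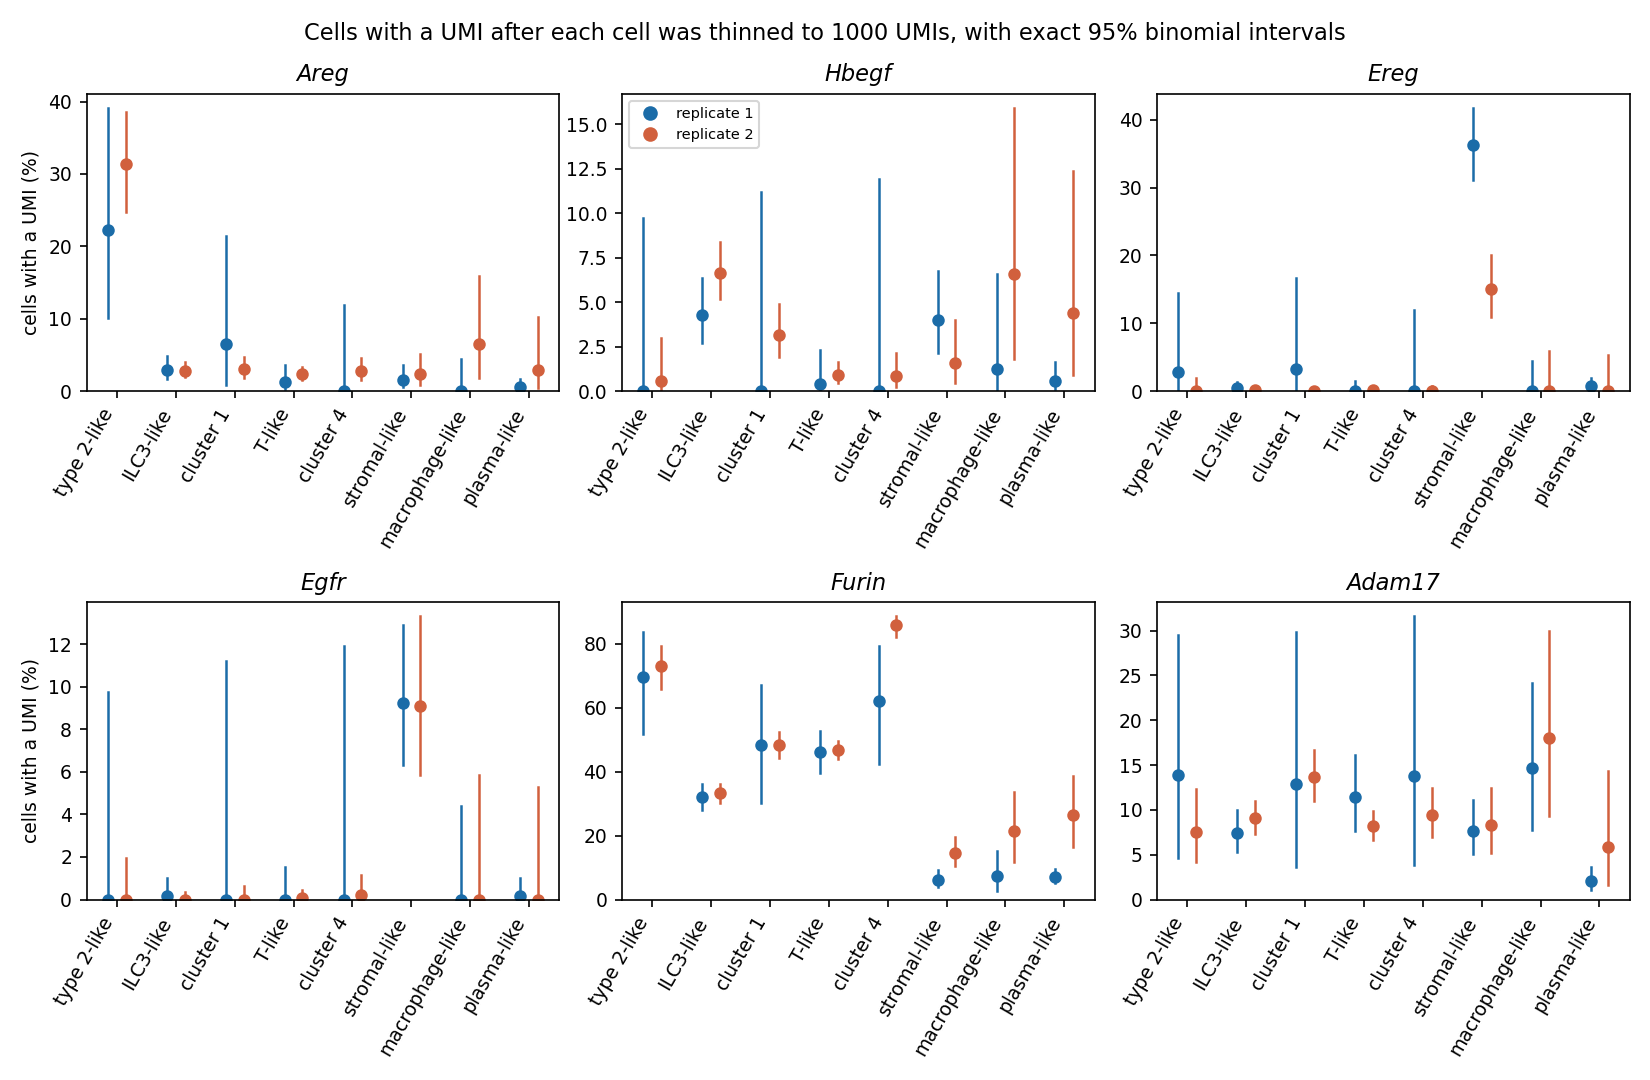
Share of cells (percent) with at least 1 UMI of each gene after every cell was thinned to 1000 UMIs, by class and replicate, with exact 95% binomial intervals. Areg was found in 22.2% and 31.4% of type 2-like cells, Ereg in 36.3% and 15.02% of stromal-like cells, and Furin in 69.4% and 73.0% of type 2-like cells.

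The type 2-like cells carried T cell receptor transcripts. At least 1 UMI from the 3 CD3 genes, Trac, Trbc1 and Trbc2 was present in 36 of 36 and 190 of 191 of them, with a median of 12 and 11 such UMIs per cell, against 15 and 11 in T-like cells and 0 in ILC3-like cells. The ILC3-like cells were not free of them: at least 1 such UMI was present in 259 of 539 and 380 of 1034. At matched depth the shares were 22.8% and 16.8% of ILC3-like cells, against 91.7% and 95.1% of type 2-like cells. The name type 2-like cells is therefore used, and no claim is made for group 2 innate lymphoid cells without CD3. Their leading genes were, in order, Il17rb, Calca, Il13, Il17a, Hlf, Il5 and Il4. Il17a, which is not a type 2 cytokine, was thus among them. Within the cluster, cells with a UMI of Il13, a type 2 cytokine, had 457 and 1270 CPM of Areg (14 and 62 cells), and cells without one had 163 and 473 CPM (22 and 129 cells). That is 2.81-fold (1.32–6.39) and 2.69-fold (2.18–3.32) more Areg in the cells with Il13, a like ratio in both replicates. No such split was seen by Il4: Areg was 287 and 788 CPM with an Il4 UMI and 289 and 780 CPM without. Cells are not replicates, and these ratios carry counting error only. In replicate 1 the cells with Il13 held 23 Areg UMIs and those without it 11. The cell with 13 Areg UMIs was therefore among the former, and that ratio leans on it. The splits were not matched for depth. At matched depth, Il13 was found in 25% and 29.3% of type 2-like cells with an Areg UMI. It was found in 14.3% and 20.5% of those without one. Both were seen in 2 and 17 cells, and these shares carry no test.

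By the test, type 2-gated cells (at least 2 of Gata3, Il1rl1, Il4, Il5, Il13 and Il17rb with a UMI, and a UMI of the leukocyte gene Ptprc) had more Areg than T-gated cells. The sums gave 223 and 497 CPM in 50 and 219 type 2-gated cells, and 3.43 and 47.7 CPM in 164 and 1057 T-gated cells. The lower of the type 2-gated values lay above the higher of the T-gated values, so the groups did not overlap. The log2 difference was 3.67 (SE 0.46, edgeR adjusted p = 0.00178), the only one of the 6 genes to pass here. Of the 9336 genes tested in this comparison 1.08% passed, 0.889% higher in type 2-gated cells and 0.193% lower. The difference was 3.32 in replicate 2 alone and 5.63 in replicate 1 alone, where the T-gated cells held very little Areg. Without the replicate block it did not pass (edgeR adjusted p = 0.127). A CD3 or T cell receptor UMI was found in 47 of 50 and 215 of 219 type 2-gated cells. Genes that answer to tissue dissociation, summed, were 12582 and 15979 CPM in type 2-like cells and 5723 and 9489 CPM in T-like cells, and their part in this difference was not tested.

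Among ILC3-like cells, with cluster 1 left out, Areg was higher in cells with a UMI of Ccr6 than in cells with a UMI of Ncr1. Ccr6 is a chemokine receptor of the lymphoid-tissue-inducer-like subset, and Ncr1 is the receptor NKp46. Ccr6-gated cells had 100 CPM (61.3–155, 20 UMIs in 48 cells) and 134 CPM (105–169, 71 UMIs in 150 cells). Ncr1-gated cells had 22.7 CPM (9.13–46.8, 7 UMIs in 90 cells) and 11.3 CPM (1.36–40.6, 2 UMIs in 56 cells). Cells with neither lay between, at 28.9 and 53.0 CPM. The log2 difference, Ncr1-gated minus Ccr6-gated, was −2.56 (SE 0.46, edgeR adjusted p = 0.00130), and Areg was 1 of 2.04% of the 6093 genes tested that were higher in Ccr6-gated cells (3.58% passed in either direction). It was −3.49 in replicate 2 alone and −2.09 in replicate 1 alone.

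A single cell weighed on that value. In replicate 2, 1 Ccr6-gated cell held 36 of the 71 Areg UMIs, with 3936 UMIs in all and none of Gata3 or of CD3 and T cell receptor genes. Without it the Ccr6-gated level of replicate 2 was 66.5 CPM (46.3–92.5) and the log2 difference −1.998 (edgeR adjusted p = 0.0346). The call was lost when ILC3-like cells with a CD3 or T cell receptor UMI were left out (−1.78, edgeR adjusted p = 0.141) and without the replicate block (−2.72, edgeR adjusted p = 0.0689). With the unnamed cluster 1 counted among ILC3-like cells, the Ncr1-gated cells numbered 103 and 214, their Areg was 19.9 and 68.5 CPM, and the log2 difference was −1.25 (edgeR adjusted p = 0.0113). In replicate 2 that 68.5 CPM was not below the 66.5 CPM of Ccr6-gated cells without the single cell. The 2 changes were not fitted together, so under both no order is shown in replicate 2. The main ILC3-like cluster of replicate 1 had 7/9 NCR and 1/8 CCR6 subset markers raised. That of replicate 2 had 1/9 and 4/8, and cluster 1 had 8/9 and 0/8.

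Other splits of the ILC3-like cells gave Areg no stable order. Cells with a UMI of the cytokine Il22 had 40.8 and 48.4 CPM and cells without one 20.8 and 146 CPM. The replicate 2 cell with 36 Areg UMIs had no Il22 UMI and gave 36 of the 74 Areg UMIs behind the last value. Cells with a UMI of Il17f had 166 and 23.1 CPM and cells without one 25.2 and 68.0 CPM. Both splits turned direction between the replicates.

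**Figure D3:**
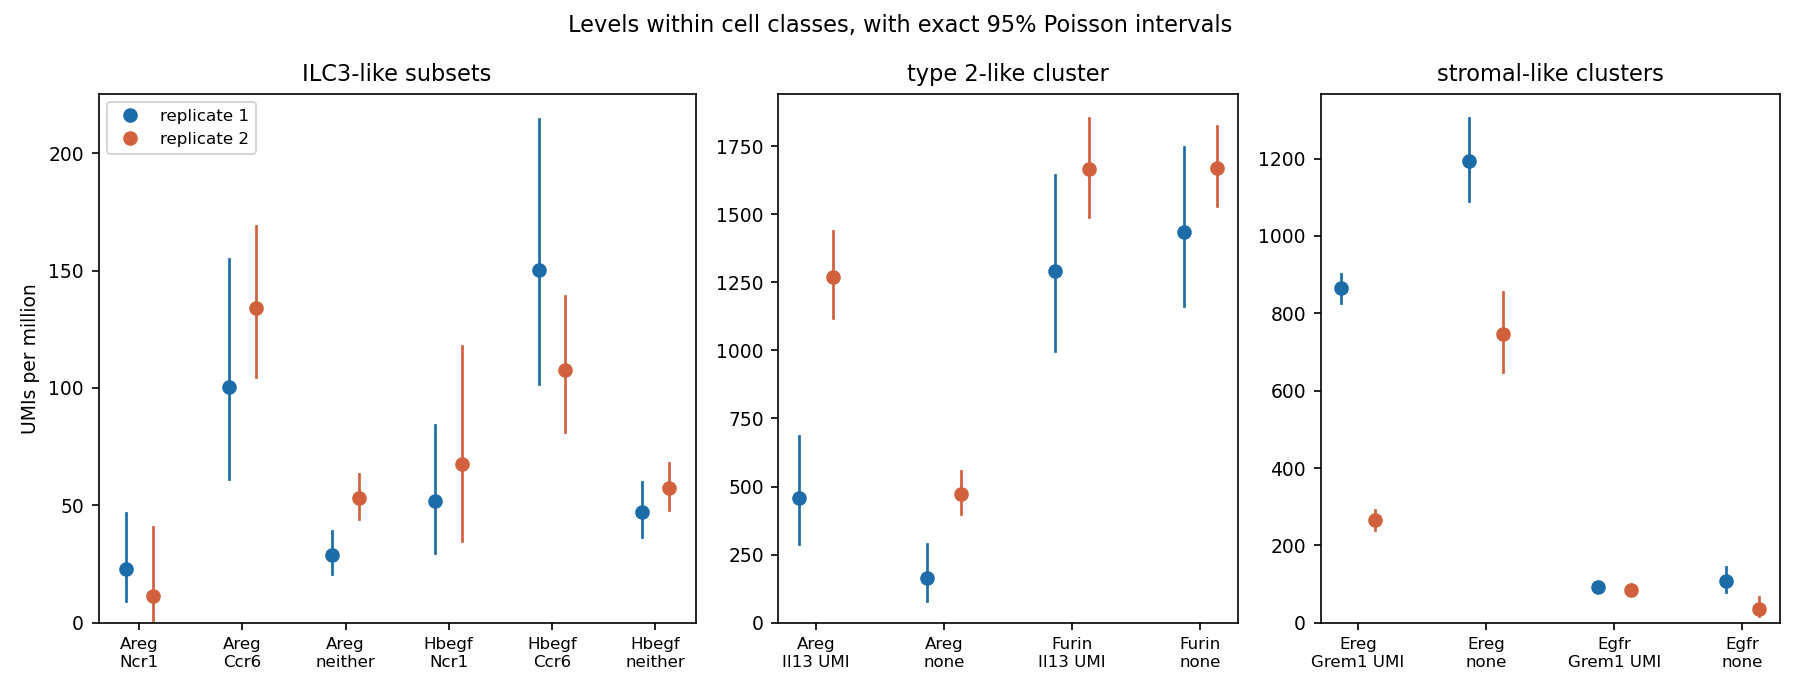
Levels (CPM) within ILC3-like, type 2-like and stromal-like cells, split by a UMI of a single gene, 1 point per replicate with exact 95% Poisson intervals. Areg is higher in Ccr6-gated (100 and 134 CPM) than in Ncr1-gated ILC3-like cells (22.7 and 11.3 CPM), and higher with Il13 (457 and 1270 CPM) than without (163 and 473 CPM) in type 2-like cells.

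The largest share of Hbegf UMIs came from ILC3-like cells. Its level there was 58.6 CPM (48.3–70.5, 113 UMIs) and 66.8 CPM (57.9–76.7, 202 UMIs), and these cells held 45.6% and 50.9% of all Hbegf UMIs. Type 2-like cells had 1 and 4 Hbegf UMIs (8.47 and 7.90 CPM). In the lymphocytes, Areg and Hbegf therefore had their highest levels in different classes. T-like cells had 1 UMI in replicate 1 (1.28 CPM) and 14.9 CPM in replicate 2, where ILC3-like cells were 4.47-fold (3.19–6.39) above them. Stromal-like cells had 24.3 and 20.8 CPM, which put ILC3-like cells 2.41-fold (1.77–3.30) and 3.20-fold (2.27–4.62) above them. Macrophage- or monocyte-like cells had 8.98 CPM (7 UMIs) in replicate 1 and 68.0 CPM (43.1–102, 23 UMIs) in replicate 2, so in replicate 2 they did not differ from ILC3-like cells beyond counting error (ratio 0.981, 0.636–1.58). Cluster 1 had 18.7 and 27.3 CPM. Epithelial-like cells, 8 and 4 in number, had 281 and 324 CPM. The unnamed cluster 15 had 185 CPM (79.9–365, 8 UMIs in 12 cells) and 41.9 CPM (11.4–107, 4 UMIs in 120 cells). A single cell held 5 of those 8 UMIs. In replicate 1, 16 endothelial-like cells had 82.4 CPM (33.1–170, 7 UMIs). In replicate 1 these small sets thus had higher values than ILC3-like cells, on few UMIs.

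None of the gated comparisons passed for Hbegf. Type 2-gated cells had 16.3 and 12.7 CPM and T-gated cells 1.71 and 9.15 CPM (log2 difference 0.91, edgeR adjusted p = 0.786). Stromal-gated cells had 18.7 and 16.8 CPM and myeloid-gated cells 11.55 and 54.2 CPM (log2 difference −0.06, edgeR adjusted p = 0.957). The second difference turned direction between the replicates. Within ILC3-like cells Hbegf was 150 and 107 CPM in Ccr6-gated and 51.9 and 67.5 CPM in Ncr1-gated cells. The log2 difference of −1.08 did not pass (SE 0.35, edgeR adjusted p = 0.101), and with cluster 1 among the Ncr1-gated cells it was −1.66 (edgeR adjusted p = 9.9e-04). By Il22, replicate 1 had 76.6 CPM with and 11.3 CPM without a UMI, while replicate 2 had 66.3 and 69.3 CPM, so that split held in 1 replicate only.

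Ereg was a stromal transcript in these cells. Stromal-like cells, marked by collagen genes (summed level 95056 and 81170 CPM for the 6 genes of the stromal gate, against 734 and 365 CPM in ILC3-like cells), had 913 CPM (878–950, 2552 UMIs) and 335 CPM (310–362, 643 UMIs). They held 97.8% and 97.6% of all Ereg UMIs. An Ereg UMI was seen in 64.0% and 37.4% of stromal-like cells, with up to 69 and 35 UMIs in a single cell. ILC3-like cells had 11 UMIs (5.71 CPM) and 3 UMIs (0.992 CPM), so stromal-like cells were 160-fold (89.3–321) and 338-fold (115–1642) above them. No class other than the stromal-like cells exceeded 16.9 CPM, a value of 2 UMIs in the type 2-like cells of replicate 1. Thinned to 1000 UMIs per cell, 36.3% and 15.02% of stromal-like cells had an Ereg UMI, so the replicates differed at matched depth as well. Cluster 6 alone had 913 and 409 CPM, and cluster 10, seen in replicate 2 only, 326 CPM.

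Stromal-gated cells (at least 3 of Col1a1, Col1a2, Col3a1, Dcn, Sparc and Col6a1, and no Ptprc UMI) had 563 and 334 CPM of Ereg, and myeloid-gated cells 2 and 0 Ereg UMIs (2.57 and 0 CPM). The log2 difference was 7.95 (SE 0.78, edgeR adjusted p = 1.5e-05), and 7.60 in replicate 1 alone. In replicate 2, against 0 UMIs, stromal-gated cells were at least 20.5-fold higher, with the limit of 3 UMIs taken per replicate. In this comparison 37.0% of the genes tested passed, 21.3% higher in stromal-gated and 15.7% higher in myeloid-gated cells, so passing it is common among all genes. The stromal gate was not pure: 199 of its 434 cells of replicate 1 were in plasma-like clusters. With cells of other clusters removed, Ereg was 985 and 343 CPM in stromal-gated cells.

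Egfr followed Ereg to the stromal-like cells, so the receptor and this ligand had their highest level in 1 class. The level was 95.2 CPM (84.1–107, 266 UMIs) and 78.2 CPM (66.1–91.7, 150 UMIs), with an Egfr UMI in 49.5% and 39.3% of cells and 97.4% and 98.0% of all Egfr UMIs. The hematopoietic classes were at or near 0. ILC3-like cells had 2 and 0 UMIs in 539 and 1034 cells, which makes stromal-like cells 91.7-fold (25.1–761) above them in replicate 1 and at least 78.8-fold above them in replicate 2, taking 3 UMIs as the upper limit that a count of 0 allows. T-like cells had 0 and 1 UMIs. Type 2-like cells had 0 UMIs in both replicates, which at their depth allows up to 25.4 and 5.92 CPM, so the receptor was not detectable there rather than shown absent. Macrophage- or monocyte-like cells had 0 UMIs in both replicates, and stromal-like cells were at least 24.7-fold and at least 8.81-fold above that limit. Epithelial-like cells, a known site of the receptor, had 1 UMI each in 8 and 4 cells (10.8 and 13.5 CPM), so this sort holds no measure of the epithelium.

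Stromal-gated cells had 56.1 and 87.3 CPM of Egfr, or 98.6 and 89.6 CPM with cells of other clusters removed. Myeloid-gated cells had 0 Egfr UMIs against 222 over both replicates in stromal-gated cells, which were at least 19.8-fold higher, with the limit of 3 UMIs taken over the group (edgeR adjusted p = 0.000205).

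**Figure D4:**
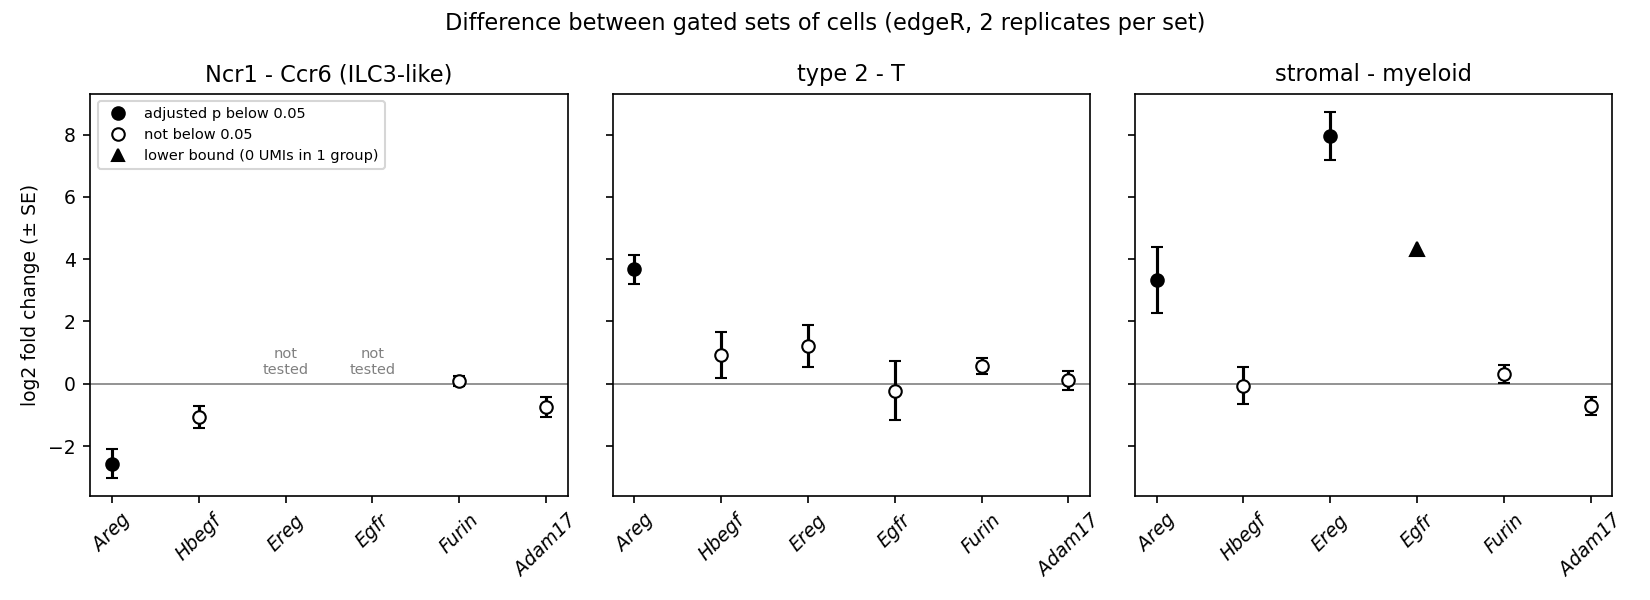
Log2 differences of the 6 genes (edgeR, bars ± SE, 2 replicates per class) in the comparisons of gated classes, with filled points where the adjusted p was under 0.05 and a triangle for a lower bound against 0 UMIs. Areg is higher in type 2-gated than in T-gated cells (3.67) and lower in Ncr1-gated than in Ccr6-gated ILC3-like cells (−2.56), and Ereg is higher in stromal-gated than in myeloid-gated cells (7.95).

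Within the stromal-like cells, a UMI of Ereg did not go with a UMI of Egfr in a direction that both replicates shared. At 1000 UMIs per cell, both were seen in 9 of 325 and 4 of 253 cells. Egfr was found in 7.63% and 10.5% of cells with an Ereg UMI and in 10.1% and 8.84% of cells without one, opposite orders in the replicates. Ereg was lower in cells with a UMI of Grem1, an antagonist of bone morphogenetic proteins: 864 and 265 CPM (261 and 211 cells) against 1194 and 747 CPM (64 and 46 cells). The ratio was 0.724 (0.656–0.7997) in replicate 1 and 0.355 (0.3001–0.421) in replicate 2, the same direction in both. Egfr gave no such order, at 92.9 and 85.3 CPM with Grem1 and 108 and 35.9 CPM without it. Split by Pdgfra, a receptor of fibroblasts, Ereg was 901 and 313 CPM with a UMI and 1044 and 503 CPM without one, again lower in cells with the UMI in both replicates, although in replicate 1 the intervals met (865–939 and 919–1181). Cells with a Ptprc UMI, 19 of 325 and 106 of 257 stromal-like cells, had 524 and 218 CPM of Ereg, and those without it 944 and 464 CPM.

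Furin was found in every class, with its highest levels in cluster 4 and the type 2-like cells, both of which carry T cell receptor transcripts. Cluster 4 had 1471 and 2641 CPM, type 2-like cells 1373 (1169–1601) and 1669 CPM (1558–1785), and T-like cells 983 and 869 CPM. In replicate 1 cluster 4 and type 2-like cells did not differ beyond counting error, and in replicate 2 they did. Cluster 1 had 616 and 692 CPM and ILC3-like cells 430 (401–461) and 413 CPM (390–436). Type 2-like cells were thus 3.19-fold (2.68–3.78) and 4.04-fold (3.70–4.41) above ILC3-like cells, and T-like cells 2.28-fold and 2.11-fold. The T-like cells were not uniform: most of those of replicate 1 were in cluster 9 (218 cells, 1020 CPM), while replicate 2 had 1207 CPM in cluster 2 (602 cells), 648 CPM in cluster 5 (499 cells) and 368 CPM (317–425) in cluster 11 (204 cells), which was not above the ILC3-like cells. At matched depth type 2-like cells and cluster 4 again led, T-like cells and cluster 1 did not differ beyond counting error, and ILC3-like cells followed: 69.4% and 73.0% of type 2-like, 62.1% and 85.7% of cluster 4, 46.0% and 46.8% of T-like, 48.4% and 48.2% of cluster 1 and 31.9% and 33.2% of ILC3-like cells had a Furin UMI. In the same split of the type 2-like cells by Il13, not matched for depth, Furin did not move as Areg did. It was 1291 and 1665 CPM with an Il13 UMI and 1433 and 1672 CPM without.

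Outside the lymphocytes the replicates disagreed. Stromal-like cells had 54.4 CPM of Furin in replicate 1 and 229 CPM in replicate 2, macrophage- or monocyte-like cells 56.5 and 396 CPM, and plasma-like cells 49.6 and 313 CPM. Lymphocyte transcripts moved with these values: summed CD3 and T cell receptor genes were 34.7 and 521 CPM in stromal-like, 23.1 and 1041 CPM in macrophage- or monocyte-like and 64.5 and 1510 CPM in plasma-like cells. Stromal-like cells with a Ptprc UMI had 108 and 366 CPM of Furin and those without it 50.2 and 78.8 CPM. Their part in the replicate 2 values was not tested beyond this split.

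No gated comparison passed for Furin. Type 2-gated cells had 1453 and 1634 CPM and T-gated cells 869 and 1249 CPM, a log2 difference of 0.57 (SE 0.25, edgeR adjusted p = 0.477), so a difference was not shown there. Stromal-gated (49.3 and 109 CPM) and myeloid-gated cells (52.6 and 92.2 CPM) differed by 0.31 (edgeR adjusted p = 0.448). Ncr1-gated and Ccr6-gated ILC3-like cells had 493 and 444 CPM and 491 and 398 CPM (log2 difference 0.09, SE 0.17, edgeR adjusted p = 0.885). With cluster 1 among them, the Ncr1-gated cells had 525 and 703 CPM and the log2 difference was 0.53 (edgeR adjusted p = 0.0336), so this call rests on whether that cluster is counted as ILC3.

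Adam17, the sheddase of the ligands, was found in every class. It was 137 (113–166) and 198 CPM (154–252) in macrophage- or monocyte-like cells, 170 (118–236) and 149 CPM (89.7–233) in dendritic-like cells, of which replicate 2 had 19 with 19 UMIs, and 159 (92.5–254) and 134 CPM (117–154) in cluster 1. In replicate 1 these sets did not differ beyond counting error. T-like cells had 107 and 93.5 CPM, stromal-like cells 95.2 and 103 CPM, ILC3-like cells 88.7 and 85.3 CPM and type 2-like cells 59.3 and 96.8 CPM. Plasma-like cells had 28.0 and 53.4 CPM, and the 8 and 4 epithelial-like cells, with 2 UMIs and 1 UMI, 21.6 and 13.5 CPM. Macrophage- or monocyte-like cells were 1.55-fold (1.203–1.98) and 2.32-fold (1.75–3.05) above ILC3-like cells. Stromal-gated (69.7 and 129 CPM) and myeloid-gated cells (132 and 255 CPM) did not pass (−0.72, SE 0.29, edgeR adjusted p = 0.0698), and the stromal-gated value was the lower in each replicate. Ncr1-gated and Ccr6-gated ILC3-like cells, at 64.8 and 73.1 CPM and at 135 and 98.1 CPM, did not pass either (−0.75, SE 0.33, edgeR adjusted p = 0.298). The type 2-like cells, highest in Areg, and the stromal-like cells, highest in Ereg, thus carried the sheddase transcript. So did the ILC3-like cells, which held the largest share of Hbegf UMIs.

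For Areg, myeloid-gated cells had 1 UMI in each replicate (1.28 and 5.42 CPM, 83 and 34 cells). Stromal-gated cells had 18.7 and 21.4 CPM and were higher, with a log2 difference of 3.33 (SE 1.05, edgeR adjusted p = 0.0265). From 1 UMI a replicate this value is loose: it was 2.03 in replicate 2 alone and 3.41 in replicate 1 alone, and the call was lost without the replicate block (edgeR adjusted p = 0.114) and with cells thinned to 1000 UMIs (edgeR adjusted p = 0.308). By cluster, replicate 1 had the same order, with 28.3 CPM in stromal-like and 1.28 CPM in macrophage- or monocyte-like cells. Replicate 2 had the opposite order, with 28.1 and 47.3 CPM. There the myeloid gate held 31 of the 66 macrophage- or monocyte-like cells, so the direction in replicate 2 depends on the gate.

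The rest of the family was nearly silent in these cells. None of the 8 other ligands (Egf, Tgfa, Btc, Epgn and the neuregulins) and none of the 3 other ERBB receptors had enough UMIs to be tested in any comparison. Btc, betacellulin, was seen in stromal-like cells at 14.3 and 13.03 CPM (40 and 25 UMIs) and at 0 UMIs in ILC3-like and T-like cells. In stromal-like cells Nrg1, a neuregulin, was 3.58 and 8.86 CPM, and Erbb2, the co-receptor of EGFR, 7.16 and 5.73 CPM. Epgn, which neighbours Ereg, had 6 and 3 UMIs there.

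Of 12 other sheddases and partners, 7 were higher and 3 lower in stromal-gated than in myeloid-gated cells, with a median log2 difference of 1.36 against 0.11 over all genes, of which 21.3% were higher and 15.7% lower. Inhibitors of metalloproteases were among the higher ones, namely Timp3 (6.44) and Timp2 (5.55), and Adam8, another ADAM protease, was lower (−4.95). Adam12 had 37 UMIs in stromal-gated and 0 in myeloid-gated cells. Members that act for and against shedding were thus both in the count. Adam8 stood at 914.8 and 139.0 CPM in macrophage- or monocyte-like cells, 262.6 and 166 CPM in type 2-like cells, 14.5 and 5.62 CPM in ILC3-like cells and 3.22 and 19.3 CPM in stromal-like cells. None of the 12 passed between type 2-gated and T-gated cells, where 1.08% of all genes tested did. Between Ncr1-gated and Ccr6-gated cells none of the 5 tested passed, where 3.58% of all genes tested did.

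Among proprotein convertases other than Furin only 3 of 8 could be tested in gated cells. Pcsk5 (6.21, edgeR adjusted p = 9.1e-05) and Mbtps1 (1.61, edgeR adjusted p = 0.00105) were higher in stromal-gated than in myeloid-gated cells. Pcsk5 stood at 235.9 and 136.0 CPM in stromal-like cells and 3.11 and 0.992 CPM in ILC3-like cells, the opposite order to Furin in both replicates. Pcsk1, which was chosen after its values were seen, had 1 and 42 UMIs in type 2-like cells (8.47 and 82.9 CPM) and 0 and 3 UMIs in ILC3-like cells. Of the furin substrates 8 of 9 were tested, and 5 were higher and 1 lower in stromal-gated than in myeloid-gated cells (median 1.301), against 21.3% and 15.7% of all genes tested. Bmp4, a bone morphogenetic protein (5.39), Igf1r, a growth factor receptor (2.73), and Mmp14, a membrane metalloprotease (1.58), were above, and Tgfb1 (−1.91) was below.

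Downstream of the receptor, stromal-gated cells were higher than myeloid-gated cells for 4 of 10 feedback inhibitors and lower for 1 (median 1.13), where 21.3% of all genes tested were higher and 15.7% lower. Spry1 (4.67) and Spry2 (3.38), inhibitors of RAS and ERK signalling, were above, while Spry4 and Lrig1, at 87 and 64 UMIs, had 0 UMIs in myeloid-gated cells. Of 9 ERK-induced genes 4 were higher and 1 lower (median 1.77, read against the same 21.3% and 15.7%), with Phlda1 (3.07), Egr1 (2.49) and Spred2 (1.89) above and the phosphatase Dusp5 (−2.14) below. Genes that answer to tissue dissociation, summed, were 24024 and 22436 CPM in stromal-like cells against 6878 and 9967 CPM in macrophage- or monocyte-like cells. Egr1 is in that sum as well, so the sum and the ERK-induced genes overlap. The part of dissociation genes in these differences was not tested. Of the 6 adaptors only Grb2 passed, and it was lower (−2.06), where 37.0% of all genes tested passed in either direction. Between type 2-gated and T-gated cells none of the listed genes passed, where 1.08% of all genes tested did. Between Ncr1-gated and Ccr6-gated ILC3-like cells Egr1, an immediate early transcription factor, was lower in the former (−1.12, SE 0.14, edgeR adjusted p = 2.5e-05), and no other listed gene passed. Egr1 is also counted among the dissociation genes, whose sum was not taken for these subsets. The part of dissociation in this difference, and in that of Areg between the same subsets, was not tested. Of all genes tested in that comparison, 3.58% passed.

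**Figure D5:**
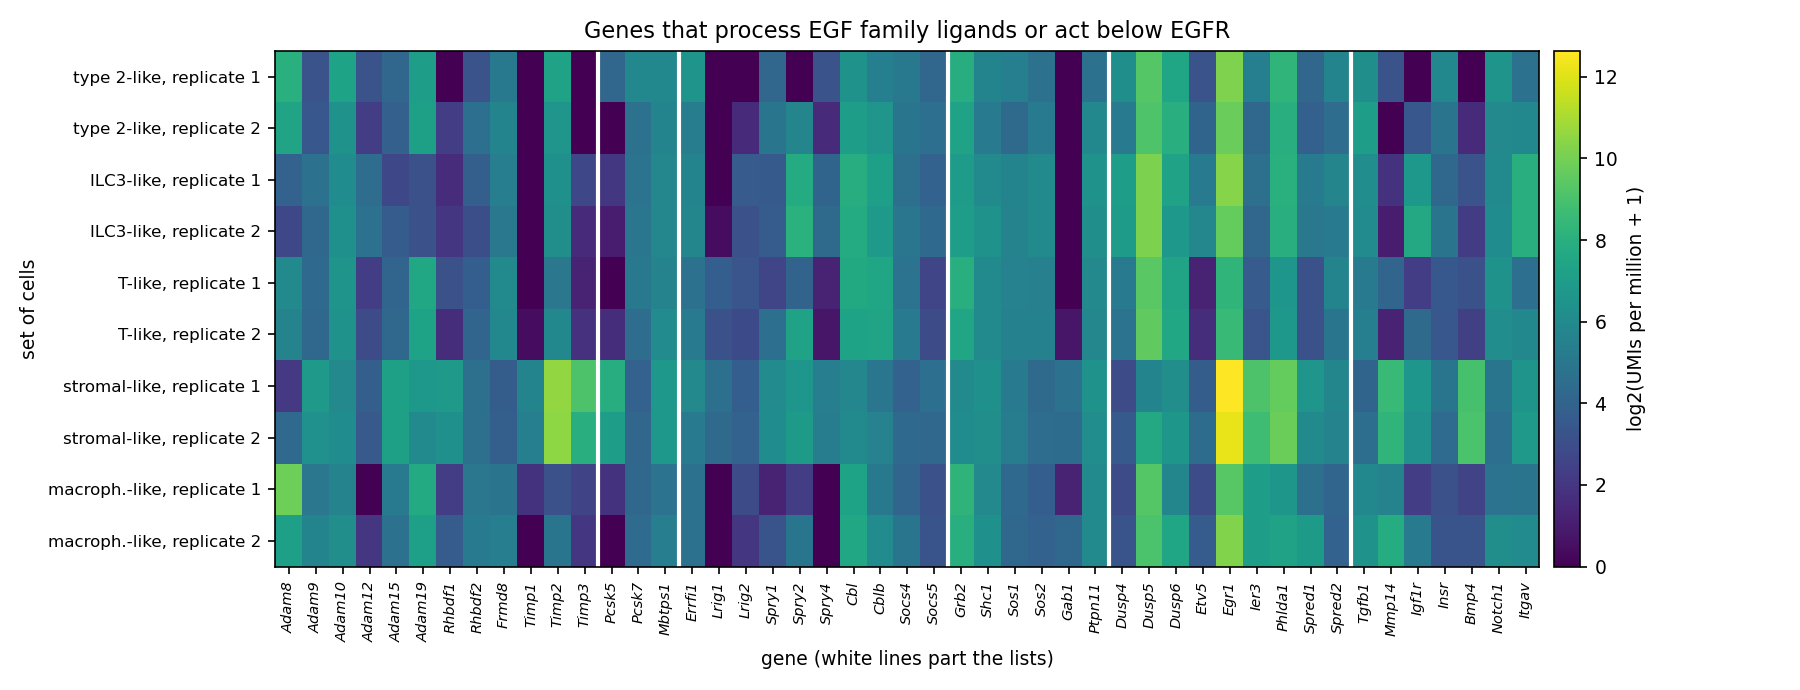
Levels of 47 pathway genes, as log2(CPM + 1), in 5 classes of cells with both replicates side by side. Pcsk5 and the Timp genes are high in stromal-like cells in both replicates, while Adam8 is highest in macrophage- or monocyte-like cells (914.8 and 139.0 CPM).

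Over 13 points (named classes in each replicate with at least 20 cells), the genes whose level followed each of the 6 most closely were, as a description with no test, Hlf (Pearson r = 0.949), Zrsr1 (0.946) and Dgkq (0.920) for Areg, and Nos2 (0.943), Il18bp (0.939) and Slc23a2 (0.916) for Hbegf. For Ereg they were Pde1a (0.993), Scara3 (0.993) and the convertase Pcsk5 (0.992), and for Egfr Pcdh7 (0.999), Syde1 (0.998) and Phldb2 (0.998). For Furin they included the T cell signalling genes Zap70 (0.980) and Sh2d2a (0.969), and for Adam17 they were Fth1 (0.943), Brk1 (0.927) and Picalm (0.906). Ereg and Egfr themselves had r = 0.963, and Areg and Furin r = 0.762. The points share captures and depth, and few classes set each r.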

How the data were processed

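UMI counts per gene and cell were deposited by the authors, not normalised; per the file headers they come from the BD WTA Multiplex Rhapsody pipeline 1.8 with GRCm38 and GENCODE vM19. The sample tag calls that the authors deposited, per the file headers from the same pipeline, are names (other than counts), and tied 2077 of 8064 and 4532 of 15793 cells to the replicates. HISAT2 2.0.5 and Bowtie2 also stand in the submitters' processing notes, with no step given. Multiplets (349 and 572), undetermined cells (508 and 1128) and 6 other tags were not used. Groups come from GEO's labels.

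Cells under 300 genes or over 25% mitochondrial UMIs were dropped, leaving 1945 and 4185. Scrublet then removed 48 and 5 cells (2.47% and 0.119%), so in replicate 2 it did not work and doublets remain. Of the 21027 shared genes, 2000 variable ones without the members and pathway genes gave 30 components, 15 neighbours and 21 Leiden clusters (scanpy 1.11.5, leidenalg 0.10.2, resolution 0.8). A marker list was a candidate with 3 or more markers raised 2-fold in at least 10% of a cluster's cells. The name went to the candidate with the best score, from its share of raised markers and its genes among the cluster's top 10. A cluster stayed unnamed where another list had more genes among these, or where a shallow cluster had none there. Clusters 1 (10/12 ILC3 markers raised) and 4 (9/12 T cell markers raised) stayed unnamed in the first way. Cluster 15 (5/10 stromal markers raised) stayed unnamed in the second. These rules were set after the clusters were seen. Marker lists numbered 18 and pathway lists 8.

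The tests used edgeR 4.0.16 (R 4.3.3) on 10 sums of gated cells (5 gates) and 6 sums of ILC3-like cells, TMM, filterByExpr, and an adjusted p under 0.05. Comparisons with 1 of the gates, 1 gene and a transgene's name are not reported here. The T gate was at least 2 of Cd3d, Cd3e and Cd3g with Cd4, Cd8a or Cd8b1, and the myeloid gate at least 3 of Lyz2, Csf1r, Cd68, Itgax, Adgre1, Flt3 and Zbtb46. Cells that met gates of more than 1 kind (lymphocyte, stromal or myeloid) were left out (238). A cell that met more than 1 lymphocyte gate was kept. Type 2 came first, so cells that met both the type 2 and the T gate were counted as type 2-gated. The T-gated cells met no other lymphocyte gate. Same-numbered sums share a capture and deviated together (r from 0.145 to 0.389 and from 0.128 to 0.501), and replicate was a block. On simulated data with 200 changed genes the fit found 39% and 97% of 2-fold and 4-fold changes for Ncr1-gated against Ccr6-gated cells, with 2.86% false calls. Likeness used log2(CPM + 10) of genes with at least 100 UMIs.

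The members and the gene lists were chosen with earlier results of these data known. Named are the 6 members in each test, up to 4 called genes with the largest change per list, and the 3 genes most like each member. Gene positions are from GENCODE vM21, and 4 of the 6 genes had a RefSeq promoter entry usable here. The alternatives tried are given in the closing section.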

Additional observations from a re-analysis of the deposited data

How the results depend on the processing

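Of all genes tested, 3.58% passed in Ncr1 against Ccr6, 1.08% in type 2 against T and 37.0% in stromal against myeloid. Of the 16 gene and comparison pairs tested, 5 passed. Over their alternatives 48 of 53 fits kept the call and the direction, and 2 of the 5 pairs kept it in all: Ereg and Egfr in stromal against myeloid. No result reversed. Without the replicate block the calls were lost for Areg in Ncr1 against Ccr6 (−2.72), type 2 against T (3.60) and stromal against myeloid (3.38). With cells thinned to 1000 UMIs, Areg in stromal against myeloid did not pass (5.75), and without ILC3-like cells with a CD3 or T cell receptor UMI, Areg in Ncr1 against Ccr6 did not pass (−1.78). Thinning moved the median of all genes by 0.470 in stromal against myeloid. The causes were not tested.

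In single replicates (leave-one-out, a value with no test), Areg ran from −3.49 to −2.09 in Ncr1 against Ccr6, from 3.32 to 5.63 in type 2 against T and from 2.03 to 3.41 in stromal against myeloid, where Ereg ran from 7.60 to 8.60 and Egfr from 6.26 to 6.67. The Egfr values and the 8.60 of Ereg are against 0 UMIs and so set by the prior count. The counts themselves allow at least 14.6-fold and 5.36-fold for Egfr in replicates 1 and 2, and at least 20.5-fold for Ereg in replicate 2. Among the 6 named classes with at least 20 cells in both replicates, so without epithelial-like and dendritic-like cells and the unnamed clusters, the highest mean level was 536 CPM for Areg (288 and 784 in single replicates), 62.7 for Hbegf (58.6 and 68.0), 624 for Ereg (335 and 913), 86.7 for Egfr (78.2 and 95.2), 1521 for Furin (1373 and 1669) and 168 for Adam17 (170 and 198). In replicate 2 alone Hbegf was highest in macrophage- or monocyte-like cells, and in replicate 1 alone, where 40 dendritic-like cells also reach that number, Adam17 was highest in those among the named classes. Hbegf in ILC3-like cells was 55.3 CPM at Leiden 0.4 and at Leiden 1.2 and 55.1 CPM with members among the clustering genes, and Adam17 was 215 CPM under stricter cell filters.

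Counts of all genes called moved as follows. Ncr1 against Ccr6 gave 218 (94 higher, 124 lower), 66 (21 and 45) with DESeq2 1.42.0, 10 (2 and 8) without the replicate block, 98 (36 and 62) without CD3 or T cell receptor cells, 592 (284 and 308) with cluster 1, and 0 with thinning. Type 2 against T gave 101 (83 and 18), 302 (221 and 81) without the low-count filter, 19 (18 and 1) without the block and 257 (204 and 53) with gates and clusters combined. Stromal against myeloid gave 3456 (1988 and 1468), and 936 (645 and 291) with thinning. The use of every tagged cell was not run for Ncr1 against Ccr6, since clusters exist only for filtered cells. Cluster 1 among the ILC3-like cells, gates combined with clusters, stromal and myeloid cells without CD3 or T cell receptor UMIs, and leaving out the cell with the most Areg were chosen after seeing the data. Areg in Ncr1-gated and myeloid-gated cells rests on 1 to 7 UMIs a replicate, which limits its precision.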
